A study of Mus musculus with 6 samples.

Results

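Cells called cycling by their transcripts made up 286 of 12092 cells with a TdTomato UMI (2.37%, 95% interval 2.10 to 2.65) in a single-cell RNA sequencing experiment on cells sorted from lung tumors of the mouse. Of the 286, 7 had at least 3 immune genes and 7 at least 3 endothelial genes, so not all of them can be taken for tumor cells. They were chosen from 1 deposited matrix of 16017 cells by 4 conditions on their unique molecular identifiers (UMIs, which count captured transcripts). A cell needed at least 500 detected genes, at most 20% of its UMIs in mitochondrial genes, at least 1 UMI of TdTomato, the tumor reporter, and a UMI in at least 3 of 10 proliferation genes (Mki67, Top2a, Ube2c, Birc5, Cenpf, Cdk1, Ccnb1, Ccna2, Tpx2 and Nusap1). Of the other TdTomato cells, 10477 had none of the 10 genes and 1329 had 1 or 2 of them.

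The experiment used 6 mice whose tumors were started with Lenti-Cre, grown for 20 weeks and then treated for 2 weeks. All 6 mice carried Lkb1XTR/XTR and Rosa26LSL-tdTomato alleles, so Cre turned on the reporter and trapped Lkb1 in the same cells. The 3 restored mice also carried FLPo-ERT2, a tamoxifen-dependent recombinase, and received tamoxifen in 4 mg doses. Of the 3 non-restored mice, 1 lacked FLPo-ERT2 and received tamoxifen, 1 lacked it and received vehicle, and 1 carried FLPo-ERT2 and received vehicle. The Lkb1XTR cassette is a gene trap with a splice acceptor and eGFP in the first intron of Lkb1 (gene symbol Stk11), which Cre inverts so that the transcript is cut short, and which the recombinase then removes. Cells were sorted as positive for tdTomato and negative for CD45, CD31, F4/80, Ter119 and DAPI. The negative gates are meant to leave out blood, endothelial and dead cells.

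The deposited matrix joins the cells of all 6 mice and no file used here gives the mouse of a cell. The cycling cells were therefore treated as part of 1 pooled sample, restored and non-restored mice were not compared, and no test over replicates was made. Barcodes shared between libraries were not counted here. Every interval below is a 95% interval for counting error only and leaves out the spread between mice.

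The cell cycle runs from a growth phase (G1) through DNA replication (S phase) and a second gap (G2) to mitosis. Genes for replication are transcribed around the entry to S phase under E2F factors. Genes for the spindle and chromosome segregation follow in G2 and mitosis. They are under complexes with MuvB, which binds the cell cycle homology region (CHR) of promoters. In the lung, surfactant-making alveolar type II (ATII) cells are the proliferating progenitors of the alveolus and can pass through a keratin-high transitional state to flat alveolar type I (ATI) cells, which rarely divide. LKB1 is a tumor suppressor kinase that phosphorylates AMPK and its related kinases.

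The 10 selecting genes were unevenly detected among the cycling cells. Mki67, the nuclear proliferation antigen, had a UMI in 244 of 286 cells (85.3%), and Ube2c, the ubiquitin-conjugating enzyme of the anaphase-promoting complex, in 232 (81.1%). Birc5 was detected in 227 cells (79.4%), Cdk1 in 226 (79.0%), Cenpf in 215 (75.2%) and Top2a in 197 (68.9%). The least detected were Tpx2 with 181 cells (63.3%), Ccna2 with 173 (60.5%), Ccnb1, the mitotic cyclin, with 134 (46.9%) and Nusap1 with 130 (45.5%). Counted per cell, 81 cells had all 10 selecting genes and 61 had exactly 3, with 18 to 38 cells at each number from 4 to 9. The 61 cells continue the fall from 1164 cells at 1 gene and 165 at 2, which the rule cuts off. These values chose the cells and are a description.

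Rrm2, a subunit of the enzyme that makes deoxyribonucleotides, and Hmmr, a spindle-associated protein, are proliferation markers that were not used for selection, and both followed the number of selecting genes. Cells with 3 or 4 selecting genes (84 cells) had 5.75 UMIs of Rrm2 per 1000000 UMIs summed over the cells (abbreviated CPM). The level was 55.9 CPM in the 64 cells with 5 to 7 selecting genes and 280 CPM in the 138 cells with 8 to 10. Hmmr had 11.9, 63.6 and 197 CPM in the same ranges. At the threshold, the 61 cells with 3 selecting genes had 5.83 CPM of Rrm2 (3.01 to 10.2) and 6.80 CPM of Hmmr (3.72 to 11.4), and the 165 cells just outside, with 2 selecting genes, had 1.69 CPM (0.811 to 3.11) and 1.01 CPM (0.372 to 2.21). The intervals were apart for Hmmr and overlapped for Rrm2, and the step was several-fold for both, though small in CPM beside the levels at 8 to 10 selecting genes. The proliferation label therefore rests mostly on cells with 5 or more selecting genes, and the cells at the threshold carried low levels of both independent markers.

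**Figure D1:**
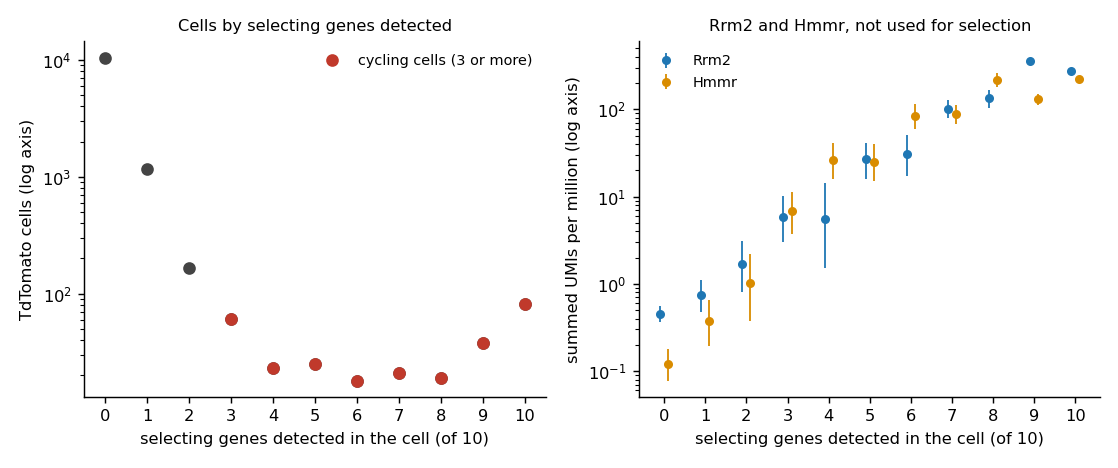
The left panel plots the number of TdTomato cells (log axis) against how many of the 10 selecting genes they had, with cycling cells in red, and falls from 10477 cells at 0 to 61 at 3 before ending at 81 cells with all 10. The right panel plots summed Rrm2 and Hmmr in CPM (log axis) at each number with 95% counting intervals, and both markers are higher at 8 to 10 selecting genes than at 3 to 4, though not at every step.

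Cycling cells were deeper than the rest, with a median of 34319.5 UMIs (696 to 114938) and 5825 genes against 18265 UMIs in TdTomato cells with none of the 10 genes. Each was therefore set beside 2 cells with none of the 10 genes and a UMI total within 0.05 on the log10 scale, which gave 572 matched cells with a median of 34316 UMIs and 5413.5 genes. The mitochondrial share was alike, with medians of 3.14% in cycling and 3.15% in matched cells. The TdTomato level had a median of 6824 CPM over cycling cells (31.7 to 24593) and of 6252 CPM over matched cells. A TdTomato UMI did not by itself set neoplastic cells apart in this matrix, since 81 of 84 cells with at least 3 immune genes (96.4%) and 124 of 137 with at least 3 endothelial genes (90.5%) also had one. Those reference cells serve below as the background for shares of cells with a UMI.

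Promoter sequence is shown first for the mitotic genes because the cycling cells differed most in them. The table of RefSeq promoters (GRCm38.p6, 250 bases before to 50 after each start) held 34 of 40 G2 and mitosis genes outside the selection, with 38 windows. Capitals mark a CCAAT box (or ATTGG on the other strand) and the CHR core TTTGAA or TTCGAA (or TTCAAA), overlaps allowed, in windows printed 5′ to 3′ on the strand of the gene.
Hmmr, chr11:40733388-40733687, minus strand: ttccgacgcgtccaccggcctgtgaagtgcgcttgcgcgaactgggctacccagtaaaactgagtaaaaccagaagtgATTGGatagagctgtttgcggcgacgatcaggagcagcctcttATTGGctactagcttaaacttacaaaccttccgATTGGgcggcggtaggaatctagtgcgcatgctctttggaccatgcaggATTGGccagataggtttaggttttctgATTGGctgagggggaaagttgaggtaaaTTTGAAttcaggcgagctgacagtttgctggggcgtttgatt
Plk1, chr7:122159185-122159484, plus strand: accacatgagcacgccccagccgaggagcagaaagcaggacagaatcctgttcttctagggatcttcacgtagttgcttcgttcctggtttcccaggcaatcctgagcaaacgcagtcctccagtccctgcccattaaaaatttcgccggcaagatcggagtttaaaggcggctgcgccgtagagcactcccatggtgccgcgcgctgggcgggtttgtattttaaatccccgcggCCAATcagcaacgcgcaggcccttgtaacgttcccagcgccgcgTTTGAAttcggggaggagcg
Cdc20, chr4:118437294-118437593, minus strand: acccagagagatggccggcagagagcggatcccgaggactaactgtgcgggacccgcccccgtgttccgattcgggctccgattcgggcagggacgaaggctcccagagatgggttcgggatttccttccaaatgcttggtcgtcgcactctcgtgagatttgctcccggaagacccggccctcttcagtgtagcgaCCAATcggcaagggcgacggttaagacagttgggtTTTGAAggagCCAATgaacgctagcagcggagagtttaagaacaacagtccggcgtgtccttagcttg
Ccnb2, chr9:70421505-70421804, minus strand: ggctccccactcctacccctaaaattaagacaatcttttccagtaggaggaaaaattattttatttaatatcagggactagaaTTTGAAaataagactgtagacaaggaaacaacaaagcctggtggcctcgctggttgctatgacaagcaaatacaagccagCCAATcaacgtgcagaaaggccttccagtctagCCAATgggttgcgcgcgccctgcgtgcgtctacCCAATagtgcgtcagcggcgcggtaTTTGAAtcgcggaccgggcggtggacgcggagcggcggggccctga

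The windows printed above were taken only from those that held both motifs, so they are examples. Hmmr held 5 CCAAT boxes and 1 CHR core by this search. Across the list, 23 of 38 windows (60.5%) had a CCAAT box together with a CHR core on either strand. The share was 5.58% of the windows of all genes compared and 7.52% of all 32851 RefSeq windows of the same length. It was 11.8% for the S phase genes (4 of 34 windows) and 0 of 12 windows for the ATII genes. Among the selecting genes, 5 of 8 windows held both.

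The replication genes are shown for the E2F letters, GCGGGAA or TTTCGCGC on either strand, which are in capitals here.
Mcm7, chr5:138171834-138172133, minus strand: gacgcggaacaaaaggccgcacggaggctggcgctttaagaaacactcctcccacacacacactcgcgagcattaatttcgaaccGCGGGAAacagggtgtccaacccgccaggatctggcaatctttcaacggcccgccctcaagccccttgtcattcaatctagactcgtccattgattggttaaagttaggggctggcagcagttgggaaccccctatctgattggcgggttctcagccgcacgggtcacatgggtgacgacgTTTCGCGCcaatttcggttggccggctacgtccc
Mcm5, chr8:75109259-75109558, plus strand: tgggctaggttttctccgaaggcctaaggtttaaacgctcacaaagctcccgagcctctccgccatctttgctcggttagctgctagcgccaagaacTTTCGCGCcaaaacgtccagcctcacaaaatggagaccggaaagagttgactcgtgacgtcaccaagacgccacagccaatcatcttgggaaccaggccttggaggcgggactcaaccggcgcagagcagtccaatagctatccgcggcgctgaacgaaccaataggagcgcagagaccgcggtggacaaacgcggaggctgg
Cdc6, chr11:98907901-98908200, plus strand: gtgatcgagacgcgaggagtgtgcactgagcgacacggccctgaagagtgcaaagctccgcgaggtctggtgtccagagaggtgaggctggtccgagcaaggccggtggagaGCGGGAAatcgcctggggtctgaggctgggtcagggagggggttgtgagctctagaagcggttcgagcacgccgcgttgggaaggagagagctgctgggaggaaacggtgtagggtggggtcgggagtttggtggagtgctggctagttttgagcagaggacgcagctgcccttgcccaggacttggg

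Mcm7 and Mcm5 are subunits of the replicative helicase and Cdc6 loads it onto DNA. Of 34 windows for the 29 of 40 S phase genes that were in the table, 20 (58.8%) held GCGGGAA or TTTCGCGC. The share was 9.30% over the genes compared, 4.89% over all RefSeq windows, 2.63% for the G2 and mitosis genes (1 of 38) and 0 of 12 for the ATII genes. The replication windows printed above were taken only from those that held these letters. A match of letters is a description of the windows and not a bound site.

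Over all 10172 genes with at least 5 CPM in either set of cells, 1019 (10.0%) were at least 2-fold higher in cycling than in matched cells and 184 (1.81%) at least 2-fold lower, with a median log2 ratio of 0.21. With ratios taken relative to that median gene the counts were 825 and 313, so log2 ratios between 0 and 0.21 are higher on the CPM scale and lower than the median gene. An interval above equal levels was found for 5027 of the 10172 genes and one below for 1568. The 10 genes that chose the cells were left out, but genes detected along with them are among those compared. The counts below are a description of the members against that background. All 40 G2 and mitosis genes outside the selection were at least 2-fold higher, with a median log2 ratio of 7.04, or 6.93 with the 4 genes that had no matched UMI (Ndc80, Cdc25c, Ttk and Sgo1) set at their bound. Their summed level was 3522 CPM in cycling and 92.2 CPM in matched cells. Cdc20, the activator of the anaphase-promoting complex, had 290.0 CPM in cycling and 4.17 CPM in matched cells, a log2 ratio of 6.12 (5.81 to 6.45). Plk1, a mitotic kinase, had 54.9 and 0.242 CPM, and Ccnb2, a B-type cyclin, 125 and 0.388 CPM. Hmmr had 122 CPM against 2 UMIs in all matched cells, a log2 ratio of 10.30 (8.44 to 13.35). The smallest difference in the list belonged to Smc4, a condensin subunit, with 204 and 30.9 CPM and a log2 ratio of 2.72 (2.60 to 2.85). The matched cells were chosen for lacking 10 genes of the same kind, yet unthinned 54.4% of them had a Smc4 UMI and 12.2% a Cdc20 UMI.

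Of 40 replication and S phase genes, 39 were at least 2-fold higher in cycling cells, with a median log2 ratio of 3.65 and summed levels of 2289 and 312 CPM. Rrm2 had 164 CPM in cycling and 0.388 CPM in matched cells, a log2 ratio of 8.72 (7.74 to 9.94). Mcm5 had 65.9 and 2.62 CPM, a log2 ratio of 4.65 (4.25 to 5.08). Tyms, thymidylate synthase, had 185 and 25.8 CPM, and Pcna, the sliding clamp of DNA polymerase, 66.4 and 13.9 CPM. E2f8, a repressor in the E2F family, had 19.2 CPM and no UMI in matched cells, which makes it at least 132-fold higher when 3 UMIs are taken as the floor over that set. Replication genes were therefore higher as a group, with higher levels in the matched cells than the mitotic genes had.

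Histones and chromatin proteins were higher as well, since 12 of 13 tested genes were at least 2-fold higher, with a median log2 ratio of 3.38. H2afz, a histone variant, had 2316 CPM in cycling and 425 CPM in matched cells, and Hmgb2, a chromatin architectural protein, had 569 and 54.5 CPM. Hist1h1b, a linker histone made in S phase, had 70.4 CPM in cycling cells and 1 UMI in matched cells, a log2 ratio of 10.50 (8.02 to 15.81). Cbx5, a heterochromatin protein, stood at 117 and 60.0 CPM, a log2 ratio of 0.97. Transcripts of replication-dependent histones mostly lack a poly(A) tail, and this assay captures poly(A), so their levels are those of the captured part. Per 5000 UMIs, the chromatin genes summed to a median of 22 UMIs in a cycling cell (2 to 59) and 5.5 in a matched cell (0 to 16).

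Among 9 tubulin genes and their regulators, 7 were at least 2-fold higher. Stmn1, which destabilizes microtubules, had 1017 CPM in cycling and 50.3 CPM in matched cells, a log2 ratio of 4.34 (4.25 to 4.43). Tubb5 had 1228 and 198 CPM and Tubb4b 916 and 417 CPM. Tuba1a and Tubb2a stood at log2 ratios of -0.12 (-0.26 to 0.03) and -0.07 (-0.22 to 0.07). Their intervals included equal levels, but Tuba1a stood at -0.32 (-0.53 to -0.10) without cells that had at least 2 genes of another type and at -0.71 (-0.87 to -0.55) against cells also matched on their range of Lyz2, Hopx and Krt8 (called identity-matched cells here).

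The position of cycling cells in the cycle was read from genes outside the selection, but the selecting genes are mostly those of G2 and mitosis, so the rule itself shapes the shares below. For comparisons within cells, every cell was thinned to 5000 UMIs, which kept 273 cycling and 546 matched cells and left out 13 shallower cycling cells. A thinned cycling cell had a median of 6 UMIs of the S phase genes (0 to 59) and 11 of the G2 and mitosis genes (0 to 68), against medians of 1 (0 to 7) and 0 (0 to 3) in matched cells. Of the 273 cells, 194 (71.1%) had at least 10 UMIs over both lists. S phase genes held at least 75% of those UMIs in 26 cells (13.4%, called S-high here), between 25% and 75% in 85 cells (43.8%, mixed) and at most 25% in 83 cells (42.8%, G2/M-high). These are ranges along a continuum, with 33 cells within 5 percentage points of the lower border and 15 within 5 points of the upper. The remaining 79 cells had under 10 UMIs in both lists together and a median of 3 selecting genes, against medians of 5, 9 and 10 in the S-high, mixed and G2/M-high ranges.

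**Figure D2:**
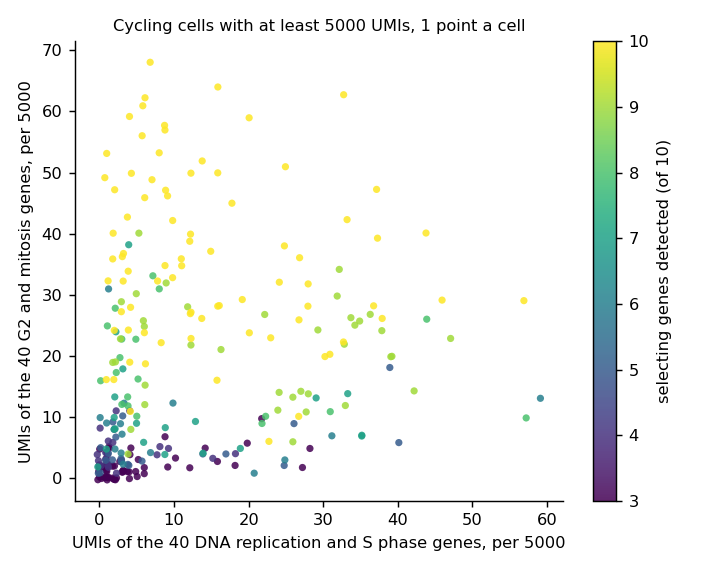
Each point is 1 of 273 cycling cells thinned to 5000 UMIs, placed by its UMIs in 40 replication and S phase genes (x axis) and in 40 G2 and mitosis genes (y axis), and colored by the number of selecting genes detected. Cells lie along both axes and between them, up to 59 S phase and 68 G2 and mitosis UMIs, and cells with few selecting genes cluster at the origin.

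Because the lists set these ranges, the levels of their genes in them are a description. Mcm5 had 185 CPM in S-high cells, 96.5 in mixed and 26.5 in G2/M-high cells. Rrm2 had its highest level in the mixed range, with 374 CPM against 200 CPM in S-high and 57.8 CPM in G2/M-high cells. Cdc20 ran the other way, with 23.1, 226 and 634 CPM, and Hmmr had 0, 101 and 272 CPM. Hist1h1b, in neither list, was likewise highest in mixed cells, with 169 CPM (133 to 213) against 7.69 CPM (0.195 to 42.9) in S-high and 38.6 CPM (22.0 to 62.6) in G2/M-high cells. The range names thus describe shares of UMIs in the lists and not a measured phase. In the unthinned counts 116 cells had both Rrm2 and Hmmr, 30 had Rrm2 without Hmmr, 65 had Hmmr without Rrm2, and 75 had neither. With Mcm5 and Ccnb1, the first a helicase subunit and the second a mitotic cyclin, 11 thinned cells had both, 47 had Mcm5 only, 51 had Ccnb1 only and 164 neither.

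Regulators of G1 and of cell cycle exit were mixed. Of 25 genes compared (Cdk6 and Mycl were under the CPM minimum), 5 were at least 2-fold higher and 1 lower, with a median log2 ratio of 0.29. E2f1, the S phase transcription factor, had 32.5 CPM in cycling and 1.89 CPM in matched cells, a log2 ratio of 4.10 (3.62 to 4.62). The kinase inhibitors Cdkn2c and Cdkn2d were higher as well, with 52.3 against 7.61 CPM and 80.5 against 8.29 CPM. The pocket protein Rbl1 had 25.6 and 3.59 CPM, and E2f3 had 11.3 and 3.15 CPM. Cdkn1a, which encodes the p21 inhibitor of cyclin-dependent kinases, was the gene at least 2-fold lower, with 177 CPM in cycling and 369.7 CPM in matched cells, a log2 ratio of -1.06 (-1.13 to -0.99). Within cycling cells Cdkn1a had 92.3 CPM (47.7 to 161) in the S-high range and 118 CPM (87.4 to 156) in G2/M-high cells, which overlap, against 256 CPM (211 to 309) in mixed cells and 243 CPM (197 to 297) in cells with under 10 UMIs of both lists. Ccnd1, the G1 cyclin, had 471 and 345 CPM, a log2 ratio of 0.45 (0.40 to 0.50), and Cdk4, its kinase, 163 and 83.8 CPM. Btg2, an antiproliferative gene, had 406 and 593 CPM. Cell cycle inhibitors therefore pointed in both directions.

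Metabolic lists had medians above that of all genes, by smaller amounts, and their counts at 2-fold varied. Over all genes 10.0% were at least 2-fold higher, near the 13.3% of the glycolysis genes. In nucleotide synthesis, 7 of 16 genes were at least 2-fold higher, led by Tk1, thymidine kinase, with 110.5 and 2.04 CPM, a log2 ratio of 5.76. Mthfd1, a one-carbon enzyme, had 57.0 and 63.0 CPM. Of 12 ribosome biogenesis genes 4 were at least 2-fold higher and none lower, with a median log2 ratio of 0.72, but none of the 12 was against identity-matched cells, with a median of 0.51. Nop58, a nucleolar protein, had 121 and 50.3 CPM, and Npm1, nucleophosmin, 765 and 541 CPM. Of 15 glycolysis genes 2 were at least 2-fold higher, with a median of 0.62, and none against identity-matched cells, with a median of 0.27. Gapdh had 1884 and 1058 CPM and Ldha 1162 and 739.8 CPM, whereas Aldoa ran lower, with 468 and 560.1 CPM. None of the 22 nuclear genes of the respiratory chain passed 2-fold in either direction, with a median of 0.31 against 0.21 over all genes. Against identity-matched cells 6 of 16 nucleotide synthesis genes and 815 of all 10225 genes were at least 2-fold higher. The count for ribosome biogenesis thus depended on the cells compared.

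Alveolar identity differed between the cycling and matched cells. Of 15 ATII genes, none was at least 2-fold higher and 4 were at least 2-fold lower, with a median log2 ratio of -0.60, and the list held 9.99% of all UMIs in cycling cells and 18.3% in matched cells. Sftpc, surfactant protein C, had 64392 CPM in cycling and 126421 CPM in matched cells. Lyz2, the lysozyme that marks mature ATII cells in the mouse, had 4276 and 10544 CPM, a log2 ratio of -1.30. The other 3 genes past 2-fold were Cxcl15 (lungkine), with 2364 and 6081 CPM, Slc34a2, the phosphate transporter of ATII cells, with 870.1 and 1954 CPM, and Hc, complement C5, with 100.1 and 257 CPM. In all, 13 of the 15 genes had an interval below equal levels, against 1568 of all 10172 genes. Sftpa1, surfactant protein A, had 9108 and 16305 CPM and Sftpb, surfactant protein B, 9122 and 11099 CPM. Abca3 (the lipid transporter of lamellar bodies), Napsa, Etv5, Lpcat1 and Chil1 had log2 ratios of -0.61 to -0.51, and Lamp3, a lamellar body protein, was closest to even among them, with 521 and 570.2 CPM and a log2 ratio of -0.13 (-0.18 to -0.08). The 2 genes with an interval above equal levels were Sftpd, surfactant protein D, with 4953 and 4155 CPM, and Fabp5, a fatty acid binding protein, with 853 and 517 CPM and a log2 ratio of 0.72.

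The range over cells was wide, so a lower sum does not describe each cell. Per 5000 UMIs, cycling cells had a median of 322 Sftpc UMIs (0 to 943) and matched cells 719.5 (0 to 1438). Lyz2 had a median of 1 UMI (0 to 246) in cycling and 36 (0 to 320) in matched cells. After thinning, 60.8% of cycling and 76.4% of matched cells had a Lyz2 UMI. Myeloid cells also express Lyz2, and it was detected in 97.3% of 75 immune and 31.1% of 90 endothelial reference cells, so its detection alone does not mark an ATII cell. Hc was detected in 25.6% and 49.6%, against 6.67% of the immune and 11.1% of the endothelial reference cells of the same depth. Sftpc was detected in 99.6% of cycling cells, but also in 98.7% of those immune and 93.3% of those endothelial cells, so its detection is background and only its level is read. The ranges of cycling and matched cells overlapped for each of these genes, and cells at 0 UMIs were present in both sets.

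Most ATI genes were lower in cycling cells. Of 9 compared, 6 had an interval below equal levels and 3 above, against 1568 and 5027 of all 10172 genes. Among the 9, 1 was at least 2-fold higher and 1 at least 2-fold lower, with a median log2 ratio of -0.21. Hopx, a homeodomain protein of ATI and transitional cells, had 99.8 CPM in cycling and 254 CPM in matched cells, a log2 ratio of -1.35 (-1.45 to -1.25), and a UMI in 22.0% and 35.3% of thinned cells. Akap5 had 31.5 and 57.7 CPM, a log2 ratio of -0.87 (-1.05 to -0.69), Clic5, an intracellular chloride channel protein, 72.1 and 121 CPM, and Rtkn2 6.10 and 9.16 CPM. Vegfa, the endothelial growth factor, and Emp2, a membrane protein, were lower by less, at log2 ratios of -0.21 and -0.16. Ager, the receptor that marks ATI cells, was close to even, with 1211 and 1185 CPM and a log2 ratio of 0.03, and so was Aqp5, a water channel, with 1191 and 1118 CPM. Cav1, the main protein of caveolae, had 27.9 and 9.11 CPM, but 3 cells held 57.6% of its UMIs in cycling cells. Without cells that also had at least 2 genes of another cell type the Cav1 log2 ratio was -0.06. Spock2, Pdpn and Igfbp2 were under the CPM minimum.

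Summed over all cycling cells, most transitional genes were higher than in matched cells by less than 2-fold, apart from Plaur, the urokinase receptor, with 98.7 and 42.9 CPM and a log2 ratio of 1.20 (1.07 to 1.33). Over the 10 genes the median was 0.49 and 8 had an interval above equal levels, as did 5027 of all 10172 genes. Krt8 had 1746 and 1208 CPM, Krt18 1909 and 1279.5 CPM, Krt7 1002 and 689 CPM, and Krt19 689 and 507 CPM, all keratins of simple epithelium. Sfn, an epithelial 14-3-3 protein, had 338 and 200.0 CPM and a UMI in 53.5% of thinned cycling and 32.6% of thinned matched cells, against 4.00% of immune and 8.89% of endothelial reference cells. Lgals3, galectin-3, had 521 and 406 CPM and Areg, the growth factor amphiregulin, 1512 and 1395 CPM. Cldn4, a tight junction protein, and Itgb6, an integrin subunit, had intervals that included equal levels, at log2 ratios of -0.10 (-0.22 to 0.01) and -0.16 (-0.34 to 0.03). Per 5000 UMIs the list summed to a median of 26 UMIs (0 to 527) in cycling and 13 (0 to 248) in matched cells. The difference was smaller in cells with more selecting genes. The transitional median was 0.27 with at least 5 and 0.11 with at least 8 selecting genes, where the median over all genes was 0.18 in both, and Krt8 had 1268 CPM in cells with 8 to 10, near the 1208 CPM of the matched cells.

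**Figure D3:**
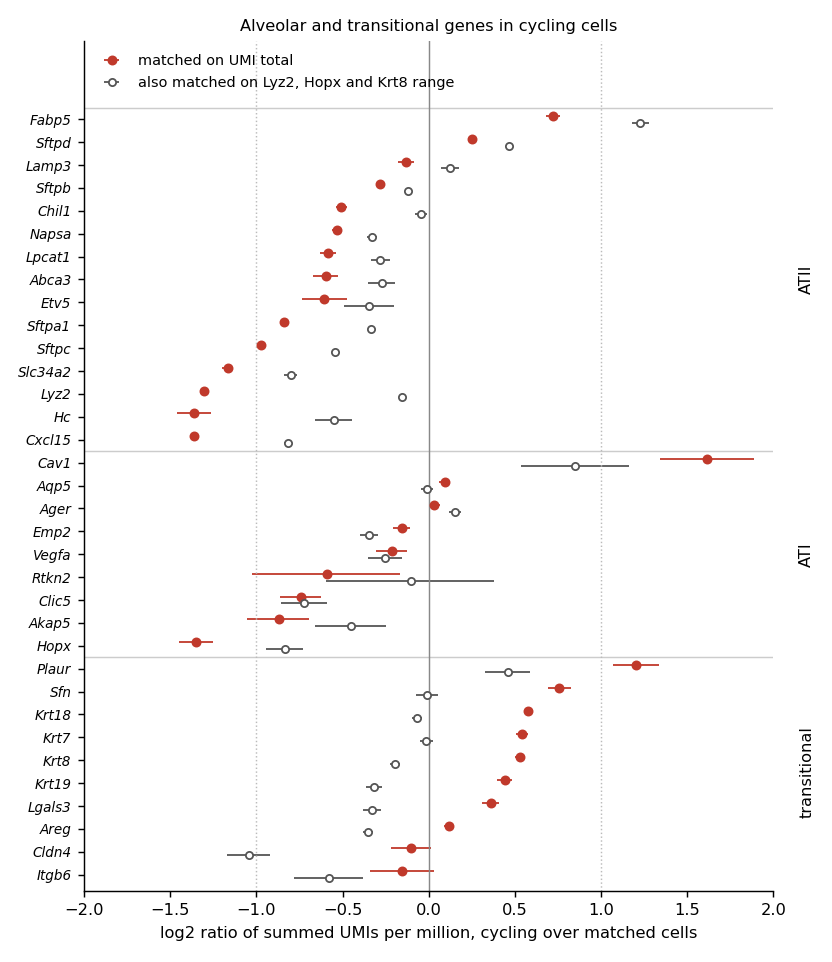
Filled points give the log2 ratio of CPM in cycling over matched cells for the ATII, ATI and transitional genes, and open points the same ratio against cells matched also on their range of Lyz2, Hopx and Krt8, with 95% counting intervals. Of the ATII genes 13 of 15 lie left of 0, and the keratins lie right of it at 0.44 to 0.58, and the open points of Krt7, Krt18 and Krt19 lie at or left of 0.

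A further comparison drew matched cells from the same range of Lyz2, Hopx and Krt8, used only cells with at least 5000 UMIs and found a match for 246 of the 286 cycling cells, so both sets of cells differ from those above. There the ATII median was -0.28 in place of -0.60 and the transitional median turned from 0.49 to -0.26. Those 3 genes set this match, so their own ratios under it are not read, and without them the medians were -0.30 for ATII and -0.32 for transitional genes. Slc34a2 stood at a log2 ratio of -0.80 (-0.84 to -0.77), Cxcl15 at -0.82 and Sftpc at -0.55, and Fabp5 was higher at 1.23 (1.18 to 1.28). None of the 15 ATII genes was at least 2-fold lower and 1, Fabp5, was at least 2-fold higher, in place of 4 and 0. Of the 10 transitional genes none, Plaur included, was at least 2-fold higher and 1 was at least 2-fold lower, in place of 1 and 0. The G2 and mitosis median was 6.73 and the S phase median 3.39 under this match, against 7.04 and 3.65.

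Within the cycling cells, identity genes varied with the number of selecting genes. Sftpc had 44074 CPM in cells with 3 or 4 selecting genes, 56977 CPM with 5 to 7 and 77011 CPM with 8 to 10. Krt8 ran in the opposite direction, with 2404, 2185 and 1268 CPM, and Krt19 with 976, 816 and 503 CPM. Lyz2 had 2879, 4967 and 4730 CPM and Hopx 93.4, 90.5 and 106 CPM. The cells with the most selecting genes were therefore those with the higher surfactant and lower keratin levels, although they were also deeper, with medians of 31769, 28222.5 and 40732.5 UMIs in the 3 ranges.

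Levels of identity genes were also compared over the S-high, mixed and G2/M-high ranges at equal depth. Krt8 had 938 CPM (779 to 1121) in S-high cells, 1000 CPM (907 to 1099.7) in mixed cells, 1998 CPM (1864 to 2138) in G2/M-high cells and 2301 CPM (2154 to 2456) in cells with under 10 UMIs of both lists. In the G2/M-high range 1 cell held 221 of the 829 Krt8 UMIs, and without it the level was 1483 CPM. Hopx had 215, 125, 81.9 and 58.2 CPM and Lyz2 7092, 5268, 3925 and 1534 CPM in the same order. In the mixed range 2 cells held 20 of the 53 Hopx UMIs. Without the 2 highest cells of each range Hopx had 158, 79.5, 61.7 and 41.6 CPM. In the S-high range 2 cells gave 468 of the 922 Lyz2 UMIs, 1 with 246 Lyz2 and 925 Sftpc UMIs and 1 with 222 Lyz2 UMIs, 4 Sftpc UMIs and no Krt8 UMI, and without both the Lyz2 level was 3783 CPM. Without cells with at least 2 genes of another type, which left 19, 65, 68 and 66 cells, Lyz2 was highest in the mixed range, with 4284, 5671, 3306 and 1379 CPM, and Hopx had 263 CPM (170 to 388) in the S-high and 111 CPM (77.6 to 153) in the mixed range. Sftpc was similar in the first 3 ranges, with 72731, 77266 and 69280 CPM, and lower in the last, with 41830 CPM. The S-high range holds 26 cells, whose mice are unknown, so these orders describe the pooled cells.

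Turned around, the share of cycling cells depended on the identity of the cell. After thinning, 166 of 11056 TdTomato cells (1.50%, 1.28 to 1.75) still had 3 or more selecting genes. By Sftpc, the share was 1.59% of cells with under 100 UMIs (34 of 2136), 3.53% from 100 to under 500 (81 of 2293, 2.82 to 4.37) and 0.908% from 500 to under 1000 (51 of 5617). None of the 1010 cells with 1000 or more Sftpc UMIs was cycling, which allows a share of up to 0.297% with 3 counts as the floor, or 0.365% by the exact binomial limit used for the other shares. The highest share was thus in an intermediate range of surfactant, and the cells richest in it held none.

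By Lyz2 the share was 1.79% at 0 UMIs (53 of 2955, 1.35 to 2.34), 2.09% at 1 to 9 (45 of 2149, 1.53 to 2.79), 1.93% at 10 to 49 (44 of 2280, 1.41 to 2.58) and 0.654% at 50 or more (24 of 3672, 0.419 to 0.971). The first 3 intervals overlap, and the share was lower in the top range alone. By Hopx it was 1.83% at 0 UMIs (128 of 6991), 1.26% at 1 to 2 (27 of 2148) and 0.574% at 3 or more (11 of 1917, 0.287 to 1.02). By Krt8 it was 1.04% at 0 UMIs (20 of 1925), 1.20% at 1 to 4 (70 of 5820) and 2.30% at 5 or more (76 of 3311, 1.81 to 2.86). The share was therefore lower in cells with high Lyz2 or high Hopx and higher in cells with high Krt8. Leaving out every cell with at least 2 genes of another type gave 0.532% at high Lyz2, 0.297% at high Hopx and 1.90% at high Krt8 against 1.30% of all 9927 cells. A thinned cell holds 5000 UMIs in all, so a cell with 1000 Sftpc UMIs has fewer left for other genes.

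**Figure D4:**
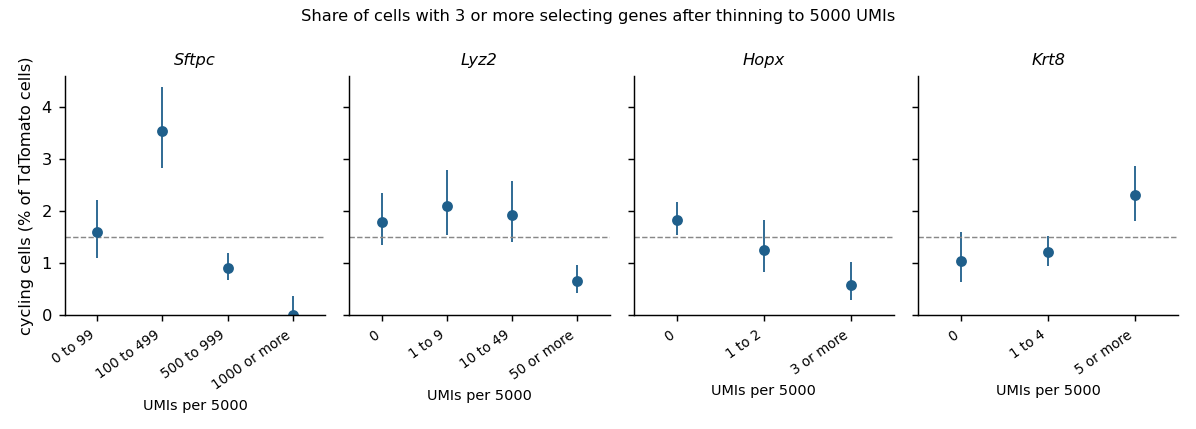
Each panel plots the percent of TdTomato cells with 3 or more selecting genes after thinning to 5000 UMIs against the UMIs of 1 identity gene in the cell, with 95% exact binomial intervals. The share peaks at 3.53% for Sftpc from 100 to under 500 UMIs, falls to 0.654% at high Lyz2 and 0.574% at high Hopx, and reaches 2.30% at high Krt8.

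GFP, the reporter in the trapped allele, was higher in cycling cells and Stk11, the gene that encodes LKB1, was lower. GFP had 497 UMIs in cycling and 543 in matched cells, or 48.1 CPM (44.0 to 52.5) and 26.3 CPM (24.2 to 28.6), a ratio of 1.83 (1.61 to 2.07). After thinning, 57 of 273 cycling cells (20.9%, 16.2 to 26.2) and 69 of 546 matched cells (12.6%, 9.97 to 15.7) had a GFP UMI, against 1.33% of immune and 1.11% of endothelial reference cells. The shares lay well above those of the reference cells, and the intervals of the 2 sets did not overlap. Unthinned, 63.3% of cycling and 34.6% of matched cells had a GFP UMI.

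Stk11 (chr10:80115803-80130682, plus strand, GRCm38) had 92 UMIs in cycling and 417 in matched cells, or 8.90 CPM (7.18 to 10.9) and 20.2 CPM (18.3 to 22.3), which is 2.27-fold lower (1.81 to 2.88). After thinning, 14 of 273 cycling (5.13%, 2.83 to 8.45) and 42 of 546 matched cells (7.69%, 5.60 to 10.3) had a Stk11 UMI, shares whose intervals overlap, so the difference in share was not detectable at this depth. The immune and endothelial reference cells had 10.7% and 13.3%. A sum over all UMIs is thus the firmer measure of Stk11 here. The trapped transcript is cut short and this assay reads 3′ ends, so Stk11 UMIs need not count it.

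The 2 transcripts were rarely seen in the same cell. Unthinned, 4 of 286 cycling cells had both, 177 had GFP only, 39 had Stk11 only and 66 had neither. Of 572 matched cells, 2 had both, 196 GFP only, 213 Stk11 only and 161 neither. GFP-only cells were thus 61.9% of the cycling and 34.3% of the matched cells, and Stk11-only cells 13.6% and 37.2%. Cells were not assigned to restored or non-restored mice from these counts, and how many cycling cells each mouse gave cannot be told apart from a change within mice.

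By selecting genes, GFP had 32.7 CPM (26.3 to 40.1) in cells with 3 or 4, 53.8 CPM (44.0 to 65.2) with 5 to 7 and 53.8 CPM (47.9 to 60.2) with 8 to 10. Stk11 had 8.98 CPM (5.81 to 13.3), 2.59 CPM (0.840 to 6.04) and 11.0 CPM (8.46 to 14.1). Cells with 2 selecting genes, just outside the rule, had 37.2 CPM of GFP and 6.43 CPM of Stk11, and those with 3, just inside, 30.1 and 8.74 CPM. GFP was therefore highest in cells with 5 or more selecting genes, and Stk11 followed no single order. With identity-matched cells the log2 ratio of GFP was 0.55 (0.37 to 0.74) in place of 0.87 (0.69 to 1.05), and that of Stk11 lay between -1.40 and -0.62 in place of -1.18 (-1.53 to -0.85).

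**Figure D5:**
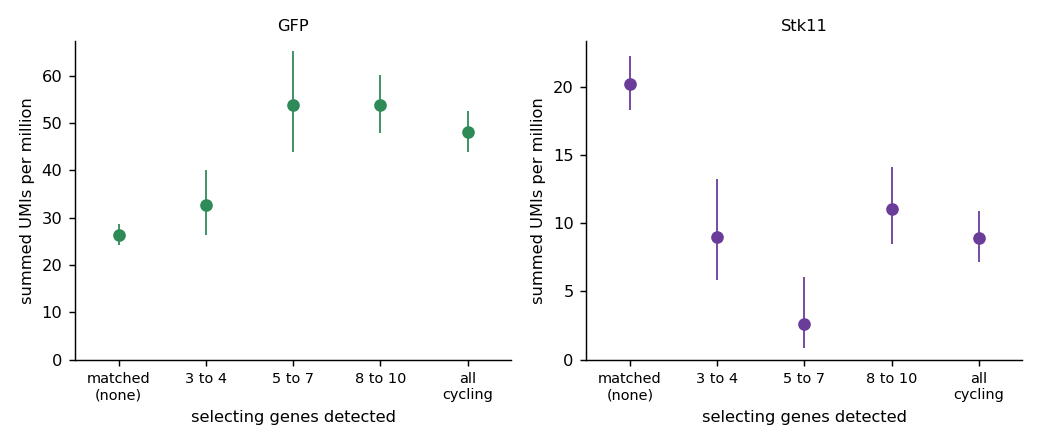
Levels of GFP (left) and Stk11 (right) in CPM are plotted with 95% Poisson intervals for cells by the number of selecting genes detected, with the matched cells for comparison. GFP sits at 53.8 in both upper ranges of cycling cells against 26.3 in matched cells, and Stk11 at 2.59 to 11.0 in cycling cells against 20.2 in matched cells.

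The other genes of the LKB1 pathway were mostly within 2-fold. Of 14 compared, with Prkaa2, Nuak1 and Crtc1 under the minimum, none was at least 2-fold higher and Stk11 alone was at least 2-fold lower, with a median log2 ratio of 0.09. The Stk11 log2 ratio was under 2-fold, at -0.98, without cells that had at least 2 genes of another type and at -0.89 in cells with at least 8 of the 10 selecting genes. Cab39, the scaffold MO25 of the LKB1 complex, had 87.4 and 80.8 CPM. The LKB1 substrates Mark2 and Mark3 had 80.7 and 69.2 CPM and 53.4 and 56.0 CPM. Nuak2, another AMPK-related kinase, was the highest by ratio, with 26.6 and 14.6 CPM and a log2 ratio of 0.87 (0.63 to 1.11). In all, 4 of the 14 genes had an interval above equal levels, against 5027 of all 10172 genes compared. Against identity-matched cells 1 of 15 was at least 2-fold higher and 2 were lower.

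The lineage transcription factors of the lung differed mostly by less than 2-fold. Of 12 compared, with Hmga2 under the minimum, Klf15, a metabolic regulator, was at least 2-fold lower, with 3.68 and 16.3 CPM and a log2 ratio of -2.15 (-2.68 to -1.67). Nkx2-1, the master factor of lung epithelium, had 296 CPM in cycling and 334 CPM in matched cells, a log2 ratio of -0.17 (-0.23 to -0.11). Cebpa had 233 and 306 CPM, Cebpd 145 and 232 CPM, Foxa2 82.4 and 72.9 CPM and Gata6 59.1 and 57.6 CPM. Of the 12 factors, 3 had an interval above equal levels and 6 below it, against 5027 and 1568 of all 10172 genes.

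Targets of MAPK signaling had a median log2 ratio of 0.20, against 0.21 over all genes, with 2 of 12 at least 2-fold higher, and a median of -0.02 with 0 of 12 against identity-matched cells. Those were Etv4, with 39.7 and 17.7 CPM, and Fosl1, with 13.8 and 5.82 CPM, both transcription factors induced by ERK. Dusp6, a phosphatase of ERK, had 153 and 118 CPM and Spry1, a feedback inhibitor, 141 and 149.9 CPM. Of 7 MHC class II genes none passed 2-fold, and Cd74, the invariant chain, had 4354 and 5154 CPM. The 10 genes induced by tissue dissociation were lower by a median of -0.38, with Fos at 2112 and 2662 CPM, and none passed 2-fold.

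Outside the lists, 10 genes had the largest ratios among those with at least 20 CPM in either set. Depdc1a, Ankle1, Fignl1, Pimreg and Ska1, a spindle and kinetochore subunit, had no UMI in matched cells and were at least 178-, 186-, 140-, 156- and 218-fold higher with 3 UMIs as the floor. Pbk, a mitotic kinase, had 111 CPM against 2 UMIs, Melk 43.0 CPM and Mxd3 37.1 CPM against 1 UMI each. Esco2, which acetylates cohesin, had 64.4 CPM against 3 UMIs and Nek2, a centrosome kinase, 36.5 CPM against 2 UMIs.

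In the lower direction the 10 genes were Pi16, Cox6a2, Mfap5, Snhg11, Prcd, Bex2, Csf2, Gas6, Khk and Nrn1. Cox6a2, a subunit of cytochrome c oxidase named for heart and muscle, had 4.74 CPM in cycling and 103 CPM in matched cells, a log2 ratio of -4.44 (-4.88 to -4.03). It was detected in 2.20% of thinned cycling and 24.7% of thinned matched cells, and its log2 ratio was -3.80 (-4.28 to -3.36) against identity-matched cells. Gas6, a ligand of the TAM receptor kinases, had 31.1 and 129.5 CPM, with a UMI in 12.8% and 37.4% of thinned cells. Bex2 had 30.8 and 143 CPM and a UMI in 9.16% and 31.3% of thinned cells. Khk, ketohexokinase, had 6.29 and 25.8 CPM, and Csf2, the cytokine GM-CSF, 6.77 and 31.0 CPM. These were differences over many cells, whereas Pi16 and Mfap5, genes of fibroblasts, rested on 1 matched cell that held 97.8% and 70.1% of their UMIs.

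Some cycling cells also carried genes of other cell types. At least 2 genes of an immune, endothelial, fibroblast, ciliated or erythroid list were found in 56 of 286 cycling cells (19.6%) and in 60 of 572 matched cells (10.5%). The ciliated list reached this in 29 and 34 cells, the immune list in 11 and 5, the endothelial list in 12 and 6, and the fibroblast list in 7 and 18. At 3 genes the ciliated list was reached in 1 and 4 cells, and only 2 of its 6 genes were at the CPM minimum. All 10 immune genes compared were at least 2-fold higher in cycling cells, as were all 7 endothelial genes, with summed levels of 184 and 35.2 CPM and of 169 and 30.4 CPM. Few cells gave these sums, since 3 cycling cells held 61.6% of the UMIs of Tyrobp, a myeloid adaptor, and 3 held 67.9% of those of Pecam1, which encodes the CD31 used in the sort. Cd3e and Cd79a, which define T and B cells, were under the CPM minimum. Among reference cells, 7 of 84 immune and 7 of 137 endothelial cells had 3 or more selecting genes.

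The differences described above were also computed without every cell that had at least 2 genes of another type. The G2 and mitosis median was 7.16, the S phase median 3.56, the ATII median -0.57, the log2 ratio of GFP 0.85 and that of Stk11 -0.98. Some values differed more. The transitional median was 0.58, the LKB1 pathway median -0.05 in place of 0.09, and the Cldn4 log2 ratio 0.22 (0.08 to 0.36) in place of -0.10. Against identity-matched cells Cldn4 stood at a log2 ratio of -1.04 (-1.17 to -0.92), so its direction depended on the cells compared. The median of -3.40 for the secretory airway list rested on 1 matched cell with 98.7% of all matched UMIs of Scgb1a1, the club cell secretoglobin. Without such cells Scgb1a1 stood at a log2 ratio of 0.70.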

How the data were processed

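Neoplastic cells of 6 mice were sorted and profiled by single-cell 3′ RNA sequencing (10x Genomics). The deposited values were counts, whole UMI counts per gene and cell, which the authors made with Cell Ranger 3.0.2 on mm10 and deposited without normalization as 1 matrix of 31055 features, 16017 cells and 266713311 UMIs, with GFP and TdTomato as features. The annotation release was not given in the sources used here. No file used here maps cells to mice, so the matrix is 1 sample and no p-value was computed.

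The members and gene lists were chosen with earlier results of these data known. Each cycling cell was matched to 2 cells without the 10 selecting genes, within 0.05 log10 UMIs and without reuse. Levels are UMIs per 1000000 summed UMIs (CPM), so deep cells weigh more, and genes with 5 CPM in either set were compared. Intervals are 95% exact Poisson, conditional binomial (ratios) and Clopper-Pearson (shares), and 3 UMIs was the floor for a count of 0. Shares came from cells thinned to 5000 UMIs (seed 42). No doublet caller was run, and cells above the 98th percentile of genes (6799) were left out as an alternative. Other alternatives changed the number of selecting genes, matching, mitochondrial limit, CPM minimum, scaling and thinning. The identity match, a cut at 8 selecting genes and list values and levels by S share without cells with 2 genes of another type were added after seeing the data.

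By rule the text names GFP, Stk11, TdTomato, Rrm2, Hmmr, all ATII, ATI and transitional genes (summarised where alike), of each other list the 3 most abundant genes and the largest ratio each way, and the 10 genes outside the lists with the largest ratio each way and at least 20 CPM. Other named genes were chosen after their values were seen. Scripts were tested on simulated counts. Values were computed with pandas 2.3.3, scipy 1.17.1 and numpy 2.4.6, and figures drawn with matplotlib 3.10.9, in Python 3.11.15. Gene coordinates came from GENCODE M21, in which 99.9% of the features had an entry. An allele shared by all mice and some list members are not reported here.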

Additional observations from a re-analysis of the deposited data

How the results depend on the processing

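Of 121 values recomputed under alternatives, in which the match on Lyz2, Hopx and Krt8 range also left 246 of 286 cycling cells, 82 stayed within their counting interval or 1.5 times the count, 38 lay outside and 1 reversed. Stk11 stayed lower in all 13 alternatives, between -0.89 and -1.42 on the log2 scale. The reversal was the transitional median, -0.26 against cells also matched on Lyz2, Hopx and Krt8 range, where the ATII median was -0.28 and GFP 0.55. The cause was not tested.

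Calling a cell cycling with 2 of 10 genes gave 114 lower genes, an ATI median of -0.094, a transitional median of 0.66 and a cycling share of 3.73%. With 5 of 10, transitional was 0.27, GFP 1.09 and the share 1.67%. With 8 of 10, 301 genes were lower, transitional was 0.11, GFP 1.18 and the share 1.14%. Thinning gave a share of 1.50%. Without cells above the 98th percentile of genes, transitional was 0.55, GFP 1.06 and the share 1.91%. Transitional was 0.58 without cells with 2 genes of another type and 0.42 with 1 matched cell. Without matching, 311 genes were lower, with ATII, ATI and transitional medians of -0.73, -0.70 and 0.79. Without the 10 most abundant genes these were 302, -0.75, -0.56 and 0.32, and relative to the median gene 313, -0.81, -0.42 and 0.28, with GFP at 0.66. A minimum of 20 CPM gave 480 higher and 82 lower genes, and 1 UMI in each set 2226 and 780. The share of cycling cells at 0 Lyz2 UMIs was 3.32% after thinning to 10000 UMIs and 2.47% with 2 of 10 genes after thinning.

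No paired analysis was possible because the pooled matrix is 1 sample and its cells carry no replicate numbers, and leaving out mice in turn was not run. Depth limits Stk11, which rests on 92 UMIs over all cycling cells, and other low genes.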
